A study of Homo sapiens with 54 samples.

Results

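The 10 genes described here are the NF-kB subunit genes NFKB1, NFKB2, RELA and RELB, the genes of the inhibitors and feedback regulators NFKBIA, NFKBIE, TNFAIP3 and BIRC3, and 2 further genes known as targets of the pathway, TNFAIP2 and ICAM1. They were chosen by gene symbol, with earlier results of these data known, from a table of 25435 genes in TPM (a measure of RNA level scaled to transcript length and library total), and all 10 were in it. The RNA came from 6 established high grade serous ovarian cancer cell lines that form 3 pairs, each pair from 1 patient. PEA1, PEO1 and PEO14 are labelled platinum sensitive, and PEA2, PEO4 and PEO23 platinum resistant. Each line was grown in RPMI1640 medium with 10% fetal bovine serum for 48 h and then left untreated or given 80 µM carboplatin, a platinum drug that crosslinks DNA, for 8 h or 24 h. The series' design text gives the dose in another unit (mM) and calls the untreated cultures vehicle-treated, harvested at 24 h. Each of the 18 groups had 3 cultures, grown on different days according to the design text. The labels give no further treatment, transgene or selection. PEA1 cultures were at far higher passage than PEA2 cultures, so passage cannot be told apart from partner in that pair. In PEA1, PEA2, PEO1 and PEO4 the untreated cultures were all at lower passage than the treated ones, so passage cannot be told apart from treatment there, while in PEO14 and PEO23 the labelled passages overlap.

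NF-kB transcription factors are dimers of proteins that share a Rel homology domain. RELA and RELB carry transactivation domains, while NFKB1 and NFKB2 encode the precursors p105 and p100, which are processed to p50 and p52. In resting cells, inhibitors of the IkB family, such as the products of NFKBIA and NFKBIE, hold the dimers in the cytoplasm, and the IKK kinase complex marks these inhibitors for degradation. Freed dimers induce genes that shut the pathway down again, among them NFKBIA and TNFAIP3, and DNA damage is one of the stimuli known to activate IKK.

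Of the 54 libraries, 42 listed between 12877 and 17133 genes above 0 TPM and were used for all tests unless stated; the other 12 listed 2678 to 11754. TPM keeps no sequencing depth, so the depth behind a value is unknown. A group had 3 used libraries, except that 2 remained for the 8 h groups of PEA2, PEO1 and PEO4. The 24 h groups of PEO4 and PEO14 and the untreated group of PEA1 kept 1 library, and untreated PEO23 kept none. Values below are TPM rescaled by median ratios, and changes are differences of log2(rescaled TPM + 1) with standard errors from limma, which understate the changes of genes at low levels. Adjusted p-values are Benjamini-Hochberg values from limma over 18013 tested genes, called below 0.05, and all 10 genes were tested. The 12 libraries left out matter: with all 54 in the fit, 6 of the 69 calls for these genes held, namely TNFAIP3 and BIRC3 in PEO4 against PEO1 at 24 h, BIRC3 in PEO1 at 24 h and the means over lines at 8 h of NFKBIA, TNFAIP2 and TNFAIP3. That fit also rescales over 392 genes instead of 8287 and pools the spread of the added libraries into every test. NFKBIA in PEO1 at 24 h, where no compared library was left out, changed by 1.72 there (adjusted p = 0.344, limma) instead of 1.46. When only the compared groups shared the estimate of the spread, 38 held, and without rescaling 35 held, 28 were lost and 6 reversed. Ribosomal protein genes took a median 12.2% of the TPM in untreated libraries, 19.8% at 8 h and 19.7% at 24 h, and the rescaling factors ran from 1.15 to 1.73, from 0.261 to 1.32 and from 0.371 to 1.39. The part of this shift in the results was not tested beyond the values without rescaling. Replicate 2 of PEO1 and of PEO4 at 8 h, each 1 of 2 used libraries of its group, were scaled up most. Their deposited NFKBIA of 33.5 and 16 TPM became 128.2 and 60.6 TPM. Of 10 leukocyte markers, CD3E, CD3D and MS4A1 were at 0 in every used library and PTPRC reached at most 1.81 TPM. NKG7, CD14, CSF1R and LYZ reached 29.8, 10.5, 8.35 and 2.51 TPM. The summed leukocyte markers were 10.8 to 130 TPM in untreated and 3.57 to 57.9 TPM in treated libraries, mostly CD68. Of 5 endothelial markers, CDH5 had a median of 127.54 TPM in PEA2 and of at most 3.50 TPM in the other lines. The summed endothelial markers reached 149.7 TPM untreated and 153.5 TPM treated, and 6 fibroblast markers 71.3 and 30.3 TPM. Among the 10 Mullerian epithelial markers, PEA1 had medians of 577 TPM for KRT18, 202 TPM for KRT8 and 37.6 TPM for PAX8, but of 7.70 TPM for KRT7, 4.89 TPM for EPCAM, 1.61 TPM for WT1, 0.144 TPM for CDH1 and 0 for KRT19, MUC16 and SOX17. MUC16 was also below 1 TPM in PEA2, PEO1 and PEO14 and SOX17 at 0 in PEO1 and PEO4, by the median.

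RefSeq promoter windows, from 250 bases before to 50 after a transcript's start on GRCh38.p14, were at hand for 8 of the 10 genes. They were searched on both strands for the kB decamer consensus, the textbook binding motif of NF-kB dimers, which 5.91% of all 35116 windows of this length held. A match was found for NFKBIA, TNFAIP3, BIRC3, NFKB1 and NFKB2, and none in the windows of RELA, ICAM1 and TNFAIP2. The stretches before the start of 4 of these genes are shown because the largest called rises against untreated described below were in the first 3, while NFKB1, a subunit gene with a match, changed in 1 line. Capitals mark the matches, and a match is a description of letters, not of binding.
NFKBIA, chr14:35404750-35404849, minus strand: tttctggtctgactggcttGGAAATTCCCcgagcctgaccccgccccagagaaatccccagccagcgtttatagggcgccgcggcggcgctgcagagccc
TNFAIP3, chr6:137867169-137867258, plus strand: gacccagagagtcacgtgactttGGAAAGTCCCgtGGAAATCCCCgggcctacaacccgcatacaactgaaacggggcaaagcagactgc
BIRC3, chr11:102317269-102317368, plus strand: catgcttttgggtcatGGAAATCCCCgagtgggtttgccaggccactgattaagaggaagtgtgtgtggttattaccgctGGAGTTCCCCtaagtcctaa
NFKB1, chr4:102501289-102501358, plus strand: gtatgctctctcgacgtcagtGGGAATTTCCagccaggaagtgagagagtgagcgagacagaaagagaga
The NFKBIA match begins 81 bases before the start. TNFAIP3 has 2 matches, beginning 67 and 55 bases before it, and BIRC3 has 2, at 199 and 135 bases. NFKB1 has 1, at 49 bases. NFKB2 held matches in 2 of its 3 windows.

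NFKBIA, which encodes IkB-alpha, was higher after carboplatin in each of the 5 lines with usable untreated libraries, at 8 h and at 24 h on the rescaled values. In PEA1 it stood at 48.4 TPM in the 1 untreated library, at 124, 121 and 116.1 TPM at 8 h and at 91.9, 115 and 117 TPM at 24 h. In PEA2 the untreated libraries gave 81.6, 88.1 and 118 TPM, the 8 h libraries 154 and 172 TPM and the 24 h libraries 169, 162 and 154 TPM. In both lines every used treated library lay above every used untreated one. PEO1 went from 67.3, 64.8 and 71.2 TPM untreated to 123 and 128.2 TPM at 8 h and 202, 179 and 185 TPM at 24 h, its highest values. PEO4 had the lowest levels of all lines, with 45.3, 43.6 and 38.9 TPM untreated, 68.1 and 60.6 TPM at 8 h and 77.6 TPM at 24 h. PEO14 gave 47.6, 59.2 and 50.7 TPM untreated, 80.6, 126 and 113 TPM at 8 h and 88.9 TPM at 24 h. PEO23, with no usable untreated library, had 165, 165 and 182 TPM at 8 h and 180, 129 and 121 TPM at 24 h. No used untreated library of a line reached its used treated libraries. This does not hold for the libraries left out. Rescaled over all 54 libraries, untreated PEA1 replicates 2 and 3 had 101 and 122 TPM, within the treated 83.2 to 135.5 TPM of that line.

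**Figure D1:**
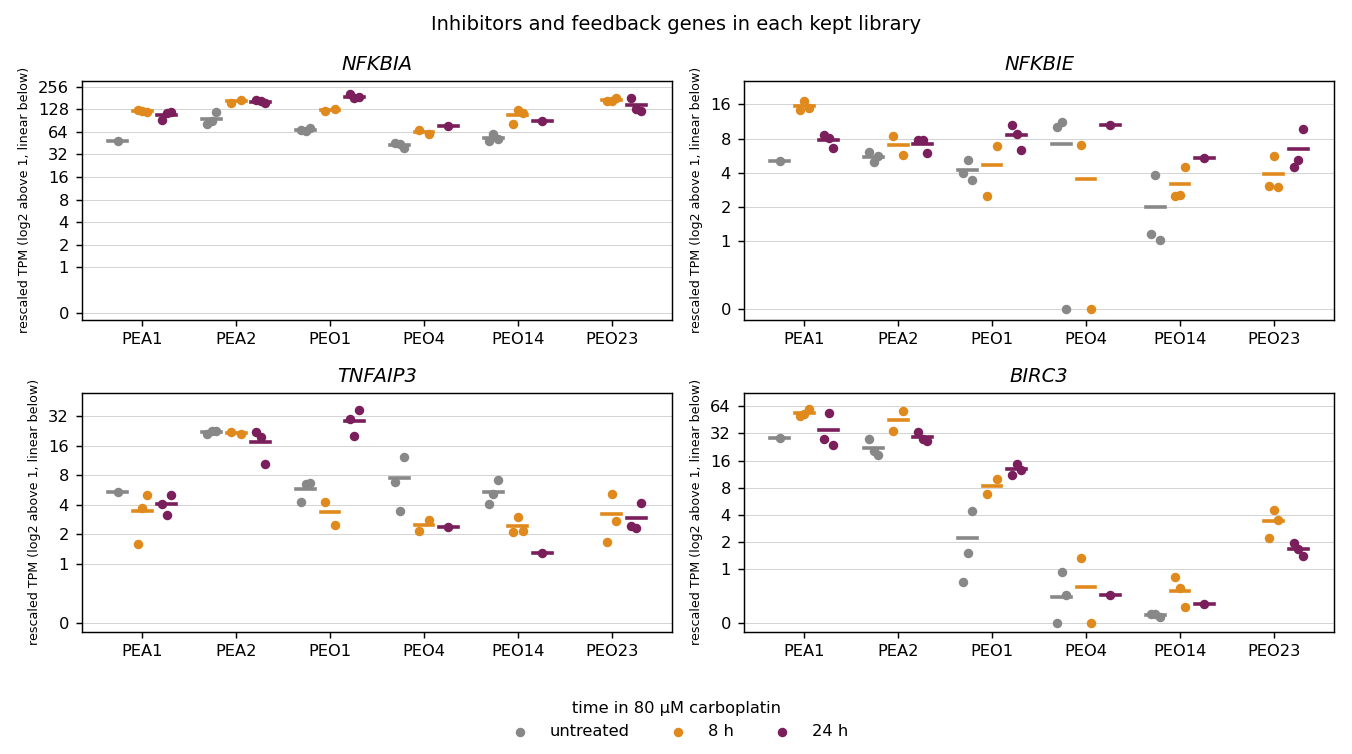
Rescaled TPM of NFKBIA, NFKBIE, TNFAIP3 and BIRC3 in the 42 used libraries, by line and time, each point a library. NFKBIA is above the untreated libraries at both times in all 5 lines that have them, on rescaled values (without rescaling its 8 h change is negative in PEO1 and PEO4 and its 24 h change in PEO14), while TNFAIP3 at 20.1 to 36.9 TPM in PEO1 at 24 h stands apart from the other times of that line.

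The log2 change of NFKBIA at 8 h was 1.30 ± 0.25 in PEA1 (adjusted p = 0.0012, limma), 0.77 ± 0.20 in PEA2 (0.00755), 0.88 ± 0.20 in PEO1 (0.000633), 0.58 ± 0.20 in PEO4 (0.0131) and 0.98 ± 0.18 in PEO14 (8.25e-05). At 24 h it was 1.13 ± 0.25 in PEA1 (0.00447), 0.76 ± 0.18 in PEA2 (0.00257), 1.46 ± 0.18 in PEO1 (2.66e-07), 0.85 ± 0.25 in PEO4 (0.0149) and 0.75 ± 0.25 in PEO14 (0.0181). Of all genes tested, 38 (0.211%) were called higher in each of the 5 lines at 8 h, 49 (0.272%) at 24 h and 17 (0.0944%) at both times, NFKBIA among them, and the 2 times share their untreated libraries. In bulk RNA, a change in the share of cells of a state and a change in RNA per cell cannot be told apart. The 8 h call in PEA2 was lost without replicate 3 at 8 h (0.69, adjusted p = 0.136), and that in PEO4 without untreated replicate 3 (0.49, 0.0538) or without replicate 1 at 8 h (0.51, 0.0956). The direction depends on the scaling. Without rescaling the 8 h change of NFKBIA was −0.84 in PEO1 and −1.03 in PEO4, the latter called lower (adjusted p = 0.0303, limma). The 24 h change in PEO14 was −0.61, and the median of all genes was then −1.14, −1.12 and −1.12, in that order. Without rescaling, 1 of the 10 calls held, that of PEO1 at 24 h (0.91), and the other 6 changes were 0.32 to 0.88, not called (adjusted p = 0.374 to 0.725, limma). Quantile scaling ended 5 of the 10 calls: PEA2 (0.53) and PEO1 (0.20) at 8 h and PEA1 (0.86), PEA2 (0.51) and PEO14 (0.26) at 24 h. Fitting only the compared groups ended those of PEA2 and PEO4 at 8 h and of PEA1, PEO4 and PEO14 at 24 h. Relative to that median of all genes the NFKBIA change was 1.03 rescaled and 0.31 unscaled in PEO1 at 8 h, 0.82 and 0.10 in PEO4 at 8 h, and 1.02 and 0.51 in PEO14 at 24 h. With all 54 libraries the 10 changes kept a positive sign, from 0.30 in PEA1 at 24 h to 1.72 in PEO1 at 24 h, and none was called.

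The ratio of NFKBIA to RELA within a library does not depend on scaling, and it was chosen after the values were seen. Untreated ratios were 1.49 in PEA1, 3.28, 3.07 and 4.85 in PEA2, 1.58, 1.42 and 1.96 in PEO1, 1.32, 0.82 and 0.77 in PEO4, and 1.69, 2.28 and 1.38 in PEO14. At 8 h they were 5.12, 6.04 and 4.52 in PEA1, 5.97 and 9.97 in PEA2, 5.28 and 6.27 in PEO1, 3.51 and 2.02 in PEO4, and 4.22, 5.60 and 3.72 in PEO14. At 24 h the ratios were 3.89, 4.86 and 3.28 in PEA1, 6.27, 7.50 and 6.04 in PEA2, 5.68, 6.23 and 4.72 in PEO1, 2.02 in PEO4 and 3.92 in PEO14. The treated and untreated ratios of the used libraries did not overlap within any line. How many other genes do the same against RELA was not counted. Relative to the median of all genes, the mean RELA change over the 5 lines on rescaled values was −0.35 at 8 h and −0.050 at 24 h. The mean log2 change of the ratio over the 5 lines was 1.51 at 8 h (1.08 to 1.81, higher in 5 of 5 lines) and 1.25 at 24 h (0.85 to 1.75, higher in 5 of 5). These ratios are a description, with no test, since the genes were picked after their values were seen. On rescaled values the RELA change was below 0 in all 5 lines, from −0.89 to −0.28 at 8 h and from −0.39 to −0.072 at 24 h. It was called only in PEO1 and PEO4 at 8 h. The ratio therefore shows unequal change of both genes and not that of NFKBIA alone.

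**Figure D2:**
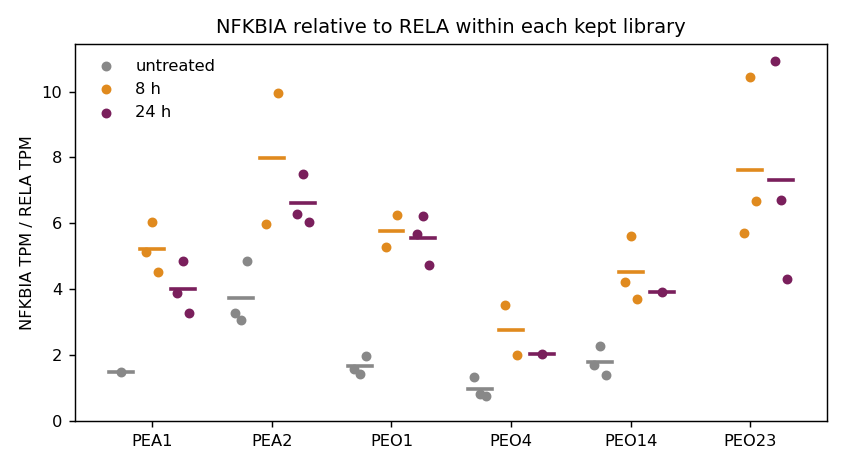
Ratio of NFKBIA to RELA TPM within each used library, by line and time, on a linear axis. Within each of the 5 lines with untreated libraries, all treated ratios lie above the untreated ones, for example 5.28 and 6.27 at 8 h against 1.42 to 1.96 untreated in PEO1.

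TNFAIP3 encodes A20, a ubiquitin-editing enzyme that limits signalling from TNF and Toll-like receptors to IKK. It rose at 24 h in PEO1 and fell at 8 h in PEO4 and at 24 h in PEO14. PEO1 had 4.28, 6.56 and 6.71 TPM untreated, 4.26 and 2.49 TPM at 8 h and 29.7, 20.1 and 36.9 TPM at 24 h, so that its 24 h libraries lay well above the other 5. The change from untreated at 24 h was 2.11 ± 0.37 (adjusted p = 4.97e-05, limma), and from 8 h to 24 h it was 2.76 ± 0.41 (0.000719). The latter call was lost with the replicate block (2.57, adjusted p = 0.1003) and without PEO1 replicate 2 at 8 h (2.47, 0.0826). In PEO4, TNFAIP3 stood at 6.75, 3.47 and 12.3 TPM untreated, at 2.183 and 2.77 TPM at 8 h and at 2.38 TPM at 24 h. The treated libraries were all below the untreated ones, and the 8 h change of −1.16 ± 0.41 (0.0179) was lost with the replicate block (−0.77, 0.137) and without untreated replicate 3 (−0.79, 0.108), 8 h replicate 1 (−1.04, 0.105) or 8 h replicate 2 (−1.25, 0.058), and with quantile scaling it was −0.59 (0.224).

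The change of TNFAIP3 at 24 h in PEO4 minus that in PEO1 was −3.30 ± 0.64 (adjusted p = 0.00472, limma), the only call for the 10 genes in the 4 such differences, and it rests on 1 PEO4 library at 24 h. It was not called with all 54 libraries (adjusted p = 0.327). In PEO14, TNFAIP3 had 4.05, 5.15 and 7.14 TPM untreated, 2.12, 3.02 and 2.16 TPM at 8 h and 1.28 TPM at 24 h. The 24 h change was −1.47 ± 0.52 (0.0265), with the replicate block it had an adjusted p of 0.0918, without untreated replicate 3 it was −1.29 (0.0726), and with quantile scaling −0.63 (0.369). PEA1 held 1.60 to 5.43 TPM in all 7 used libraries, and PEA2 10.4 to 22.9 TPM in all 8, with no call at either time.

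BIRC3 encodes cIAP2, a ubiquitin ligase that acts in TNF receptor complexes and restrains the noncanonical pathway. It rose in PEO1 at both times. The PEO1 libraries gave 0.77, 1.52 and 4.43 TPM untreated, 6.86 and 10.0 TPM at 8 h and 11.0, 14.6 and 12.7 TPM at 24 h, with no overlap between untreated and treated. The changes were 1.68 ± 0.40 at 8 h (adjusted p = 0.0011, limma) and 2.24 ± 0.36 at 24 h (1.52e-05), and the 24 h change was also called with all 54 libraries (0.0189). The 8 h change was 0.34 (0.618) without rescaling and 0.83 (0.541) with all 54 libraries, and its adjusted p was 0.133 when only the compared groups were fitted. Levels differed widely between lines: PEA1 held 24.1 to 59.8 TPM and PEA2 18.5 to 56.1 TPM, whereas PEO4 stayed at 0 to 1.34 TPM and PEO14 at 0.122 to 0.85 TPM. PEO23 lay between these with 1.41 to 4.51 TPM in its treated libraries. In PEA2, BIRC3 went from 27.8, 20.6 and 18.5 TPM untreated to 34.2 and 56.1 TPM at 8 h and 33.5, 28.0 and 26.5 TPM at 24 h. The 8 h groups did not overlap, but the change of 0.96 ± 0.40 was not called (0.105).

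NFKBIE, which encodes IkB-epsilon, was the member at the lowest levels beside TNFAIP3 and BIRC3, with a median of 5.66 TPM over the 42 libraries and 2 libraries at 0, both PEO4. No line had a call for it. In PEA1 it stood at 5.03 TPM untreated, at 14.2, 17.1 and 14.8 TPM at 8 h and at 8.65, 8.04 and 6.66 TPM at 24 h. The change of 1.44 ± 0.89 at 8 h was not called (adjusted p = 0.429, limma). Averaged over 5 lines, its 24 h change of 0.82 ± 0.36 was at the threshold (0.0499) and was lost when any of 17 single libraries was left out, with changes of 0.57 to 0.84 then. Without rescaling it was 0.29 (0.518).

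The subunit genes were called in fewer lines than NFKBIA, each in 1 or 2 of the 5. RELA, the transactivating subunit of the classical dimer, fell at 8 h in PEO1 and PEO4. It had 42.5, 45.7 and 36.3 TPM untreated and 23.3 and 20.5 TPM at 8 h in PEO1, and 34.4, 53.2 and 50.7 TPM untreated and 19.4 and 30.1 TPM at 8 h in PEO4. Neither pair of groups overlapped. The changes were −0.89 ± 0.28 (adjusted p = 0.0117, limma) and −0.88 ± 0.28 (0.00951). Both calls rest on single libraries: without PEO1 8 h replicate 2 the first was −0.80 (0.107), and without PEO4 8 h replicate 1 the other was −0.57 (0.183). With all 54 libraries the PEO4 change was 0.093 and thus of the opposite sign. At 24 h RELA was called in no line, with 35.6, 28.7 and 39.2 TPM in PEO1 and 38.5 TPM in PEO4.

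NFKB2, the gene of p100, fell at 8 h in the same 2 lines. PEO4 gave 42.4, 87.1 and 39.8 TPM untreated and 19.4 and 16.8 TPM at 8 h, a change of −1.50 ± 0.30 (adjusted p = 9.91e-05, limma). In PEO1 the untreated 28.1, 36.7 and 24.5 TPM and the 8 h values of 16.05 and 17.97 TPM gave −0.76 ± 0.30 (0.0418), lost with the replicate block and without any of untreated replicates 1 and 2 or either 8 h library (−0.60 to −0.83). The 24 h levels, 29.5, 27.5 and 40.8 TPM in PEO1 and 39.5 TPM in PEO4, were again near or above the lowest untreated values. NFKB1, the gene of p105, changed in 1 line: PEO1 had 10.7, 11.3 and 17.4 TPM untreated and 22.2, 24.5 and 28.4 TPM at 24 h. That change, 0.90 ± 0.34 (0.034), had an adjusted p of 0.0598 with the replicate block and was lost without untreated replicate 1 (0.78, 0.119) or 2 (0.82, 0.106) or without 24 h replicate 2 (0.91, 0.0704) or 3 (0.81, 0.104). Without rescaling it was 0.38 (0.622).

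RELB, the partner of p52 in the noncanonical pathway, fell at 8 h in PEO4 and was higher again there at 24 h. Its values were 17.2, 23.9 and 14.7 TPM untreated, 7.15 and 9.74 TPM at 8 h and 35.2 TPM in the 1 library at 24 h. The 8 h change was −1.04 ± 0.35 (adjusted p = 0.0142, limma), without 8 h replicate 1 it was −0.84 (0.128), and with quantile scaling −0.59 (0.182). From 8 h to 24 h the change was 1.95 ± 0.47 (0.0094), not called with the replicate block (1.75, 0.056). In the other lines RELB ranged from 4.65 TPM in PEO14 to 27.9 TPM in PEA1, with no call against untreated in any of them.

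**Figure D3:**
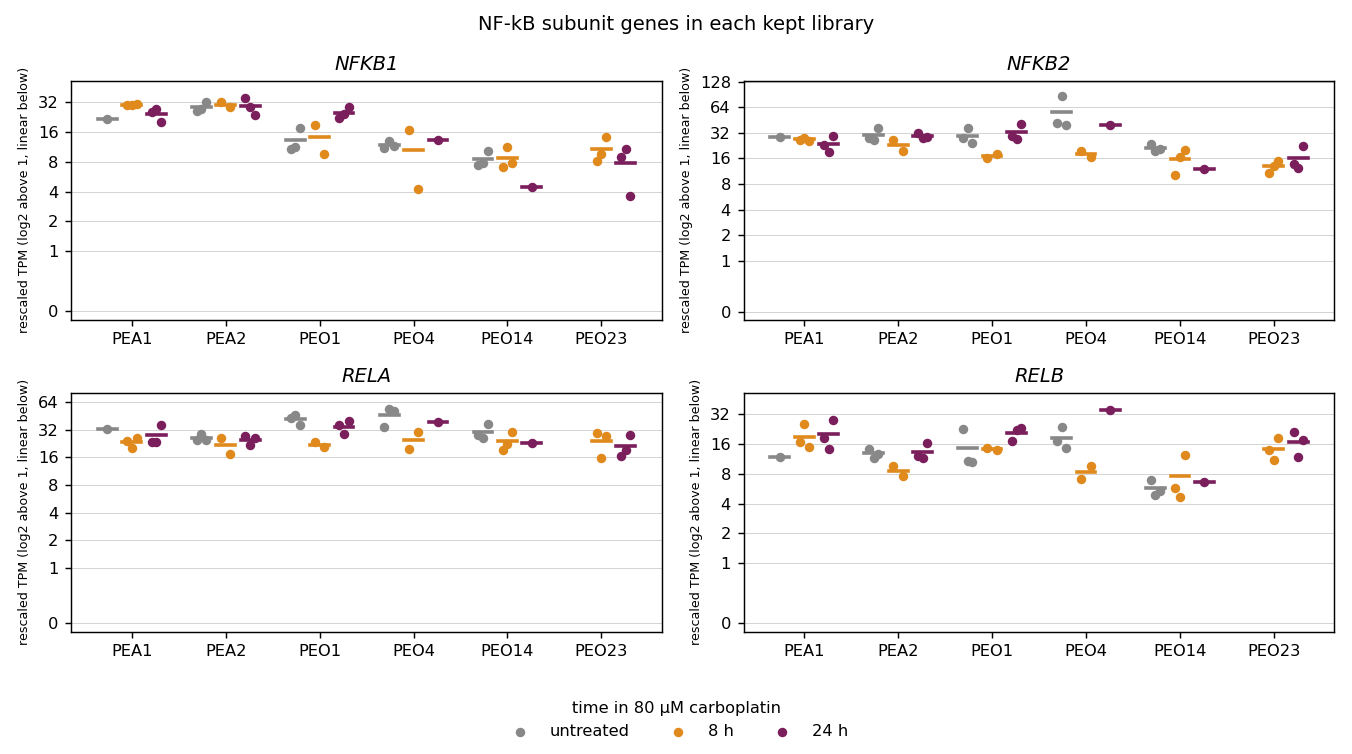
Rescaled TPM of NFKB1, NFKB2, RELA and RELB in the 42 used libraries, by line and time, each point a library. RELA and NFKB2 at 8 h lie below the untreated libraries in PEO1 and PEO4, as in PEO4 with 16.8 and 19.4 TPM of NFKB2 against 39.8 to 87.1 TPM untreated.

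Of the 2 target genes, TNFAIP2, a TNF-inducible gene of the exocyst-related family, fell in PEO1, PEO4 and PEO14 and ICAM1 rose in PEO1. TNFAIP2 in PEO1 went from 79.5, 113 and 62.9 TPM untreated to 19.6 and 14.8 TPM at 8 h and 32.7, 34.7 and 34.3 TPM at 24 h. In PEO4 it went from 83.2, 158 and 40.8 TPM to 22.4 and 4.17 TPM at 8 h, and the 24 h library had 50.3 TPM. PEO14 had 43.5, 41.0 and 37.1 TPM untreated, 19.7, 28.4 and 33.8 TPM at 8 h and 11.5 TPM at 24 h. In these 3 lines the 8 h libraries were all below the untreated ones. The same held in PEA2, with 100 to 111 TPM untreated and 67.2 and 71.7 TPM at 8 h (−0.57, not called). The PEA2 24 h libraries, at 94.0 to 95.3 TPM, were below the untreated ones too.

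The called changes of TNFAIP2 were −2.22 ± 0.42 at 8 h in PEO1 (adjusted p = 0.000117, limma), −2.90 ± 0.42 at 8 h in PEO4 (1.41e-06), −1.26 ± 0.38 at 24 h in PEO1 (0.00917) and −1.73 ± 0.54 at 24 h in PEO14 (0.0124). The PEO4 change at 8 h was −1.76 without 8 h replicate 2 and −3.99 without 8 h replicate 1, called both times. The PEO1 change at 24 h was −1.04 (0.0627) without untreated replicate 2, and the PEO14 call had an adjusted p of 0.0513 with the replicate block. From 8 h to 24 h TNFAIP2 rose in PEO4 by 2.22 ± 0.57 (0.0121), or 1.11 (0.224) without 8 h replicate 2, the library with 4.17 TPM. In PEA1 (26.2 to 39.4 TPM) and PEA2 (67.2 to 111 TPM) it was not called at either time.

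ICAM1 encodes an adhesion molecule that binds leukocyte integrins. In PEO1 it stood at 21.9, 20.5 and 25.1 TPM untreated, at 19.2 and 15.2 TPM at 8 h and at 47.8, 43.0 and 61.4 TPM at 24 h. The 24 h libraries lay above all others of the line, with changes of 1.13 ± 0.28 against untreated (adjusted p = 0.00211, limma) and 1.5 ± 0.31 against 8 h (0.0328). Without rescaling the change against untreated was 0.59 (0.344). The change against 8 h had an adjusted p of 0.310 with the replicate block (1.36), and it was lost without 8 h replicate 2 (1.35, 0.441) or any of the 24 h replicates (1.36 to 1.61, 0.0514 to 0.229). In PEA2, the line with the highest level, ICAM1 was 142 to 199 TPM untreated, 137 and 201 TPM at 8 h and 147 to 177 TPM at 24 h, and these ranges overlapped.

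**Figure D4:**
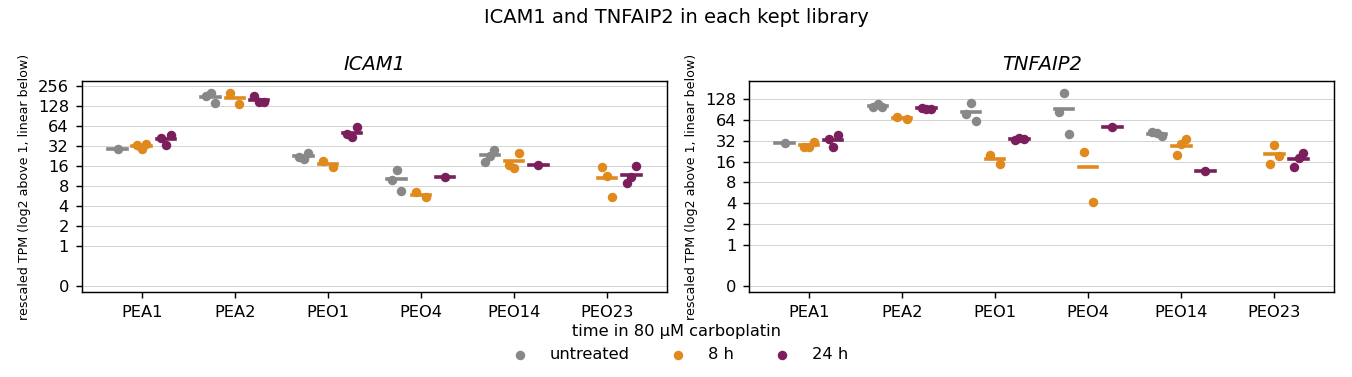
Rescaled TPM of TNFAIP2 and ICAM1 in the 42 used libraries, by line and time, each point a library. ICAM1 in PEA2 lies at 137 to 201 TPM at all times, far above PEO4 at 5.38 to 14.0 TPM, and TNFAIP2 at 8 h in PEO1, at 14.8 and 19.6 TPM, lies below the untreated 62.9 to 113 TPM.

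Counted over genes and lines, 14 of 50 tests at 8 h against untreated were called, where 29.2% of all gene-by-line tests were. At 24 h it was 12 of 50, beside 23.6% of all, and between 24 h and 8 h 4 of 60, beside 2.88%. The shares against untreated are near the background, so these counts are no result about the 10 genes as a group. By line at 8 h, 1 gene was called in PEA1 (background 5.9% of all genes), 1 in PEA2 (14.3%), 5 in PEO1 (41.9%), 6 in PEO4 (53.6%) and 1 in PEO14 (30.1%). The 1 gene in PEA1, PEA2 and PEO14 was NFKBIA. At 24 h the counts were 1 in PEA1 (6.02%), 1 in PEA2 (17.3%), 6 in PEO1 (38.6%), 1 in PEO4 (20%) and 3 in PEO14 (36.2%), and NFKBIA was again the 1 gene in PEA1, PEA2 and PEO4.

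Averaged over the 5 lines, NFKBIA and BIRC3 rose at 8 h while TNFAIP2, TNFAIP3, NFKB2 and RELA fell, in a comparison where 63.6% of all genes were called. Errors and p-values of means over lines, here and below, rest on the spread between cultures within groups, not between lines. By line, the 8 h change of BIRC3 ran from 0.094 in PEO4 to 1.68 in PEO1, called only in PEO1. That of TNFAIP2 ran from −2.90 in PEO4 to −0.077 in PEA1, called only in PEO1 and PEO4. The mean changes were 0.90 ± 0.09 for NFKBIA (adjusted p = 1.09e-09, limma), 0.82 ± 0.19 for BIRC3 (0.000335), −1.27 ± 0.20 for TNFAIP2 (2.07e-06), −0.67 ± 0.19 for TNFAIP3 (0.00303), −0.64 ± 0.14 for NFKB2 (0.000198) and −0.57 ± 0.13 for RELA (0.000379). The median of all genes was −0.22, or −0.74 without rescaling, where NFKBIA turned to −0.042 and BIRC3 was 0.32 (0.219). With quantile scaling the TNFAIP3 mean was −0.19 (0.370). At 24 h, where 56.8% of all genes were called, NFKBIA (0.99 ± 0.10, 1.59e-09), BIRC3 (0.63 ± 0.20, 0.00869), RELB (0.47 ± 0.18, 0.0264) and NFKBIE were higher and TNFAIP2 (−0.73 ± 0.21, 0.00477) lower. The median of all genes was then −0.19, or −0.58 without rescaling, where RELB turned to −0.15, NFKBIA was 0.32 (0.173) and BIRC3 0.30 (0.304), and RELB had an adjusted p of 0.122 with the replicate block. Between 24 h and 8 h, over 6 lines, none of the 10 was called by limma (background 1.54%), with 4 at an unadjusted p below 0.05 and 1 called with the replicate block. With all 54 libraries 3 were called in the mean at 8 h and none at 24 h.

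**Figure D5:**
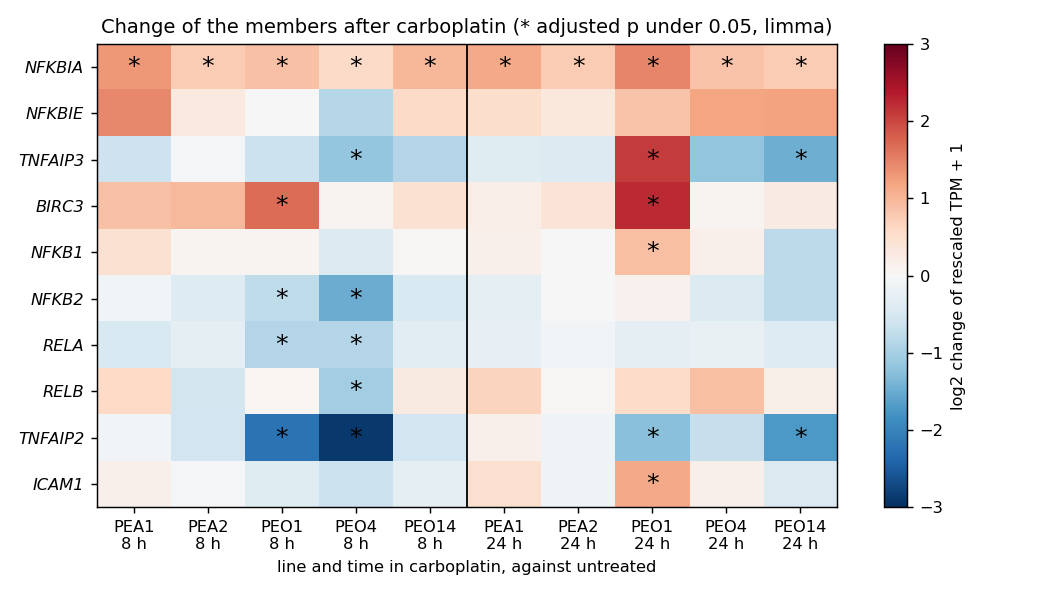
Log2 change of each of the 10 genes against untreated at 8 h and 24 h in the 5 lines with used untreated libraries, on rescaled values, as colour (red higher, blue lower), with an asterisk where the adjusted p from limma was below 0.05. NFKBIA is the gene with a positive change in all 10 line and time combinations that was called in each, from 0.58 to 1.46, although without rescaling its sign is negative in PEO1 and PEO4 at 8 h and in PEO14 at 24 h.

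Between 24 h and 8 h within a line, 4 of the 60 tests of the 10 genes were called. None of the 10 was called by limma in PEA1 (background 0.0278%, none at an unadjusted p below 0.05), PEA2 (0%, none unadjusted), PEO14 (2.54%, 1 unadjusted) or PEO23 (0.394%, none unadjusted). PEO1 had TNFAIP3 and ICAM1 (0.217%) and PEO4 had TNFAIP2 and RELB (14.1%), each higher at 24 h, with the values given above. Of these 4 calls, the replicate block ended those of TNFAIP3, ICAM1 and RELB.

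Resistant and sensitive partners were compared next, at each time. Without drug, PEA2 exceeded PEA1 for 4 of the 10 genes, and none was lower, beside 11.6% of all genes called, but PEA1 had 1 used library. ICAM1 was 28.5 TPM in PEA1 and 178, 199 and 142 TPM in PEA2, a difference of 2.55 ± 0.40 (adjusted p = 2.22e-05, limma). TNFAIP3 differed by 1.85 ± 0.52 (0.0154), TNFAIP2 by 1.79 ± 0.54 (0.0252, or 0.0539 without PEA2 untreated replicate 2) and NFKBIA by 0.95 ± 0.25 (0.0089). With all 54 libraries none of the 4 was called, and the ICAM1 difference was 1.48. The other 2 untreated PEA1 libraries were not used. Their deposited TPM were 48.7 and 322 for ICAM1, 15.1 and 98.1 for TNFAIP3 and 142 and 196 for NFKBIA. These are values before rescaling, so they cannot be set against the 28.5 TPM above. All lay above the used library's deposited values, though the lower ICAM1 value only by little. The used library's deposited NFKBIA was 81.95 TPM.

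The differences of TNFAIP3, TNFAIP2 and ICAM1 between PEA2 and PEA1 were called at each time. At 8 h (background 16.2%) ICAM1 was 32.7, 28.8 and 34.5 TPM in PEA1 and 201 and 137 TPM in PEA2, a difference of 2.34 ± 0.31 (adjusted p = 1.3e-06, limma). TNFAIP3 was 1.60, 3.72 and 5.07 TPM against 22.4 and 20.9 TPM, a difference of 2.43 ± 0.41 (4.76e-05). TNFAIP2 differed by 1.29 ± 0.42 (0.0343) and RELB by −1.04 ± 0.35 (0.0423). The TNFAIP2 call was lost without any 1 of the 5 libraries (1.24 to 1.37), and the RELB call without PEA1 replicate 1 or 2 or either PEA2 library (−0.82 to −1.19). At 24 h (background 18.7%) ICAM1 differed by 1.94 ± 0.28 (3.71e-06), TNFAIP3 by 1.81 ± 0.37 (0.000416), TNFAIP2 by 1.49 ± 0.38 (0.00434) and NFKBIA by 0.59 ± 0.18 (0.0165). The NFKBIA difference was 0.48 (0.112) without PEA1 24 h replicate 1 and 0.56 (0.0606) without PEA2 24 h replicate 1.

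In the PEO1 and PEO4 pair the resistant line was lower for NFKBIA, BIRC3 and ICAM1 at each time. Untreated (background 28.4%), NFKBIA differed by −0.66 ± 0.18 (adjusted p = 0.0052, limma), ICAM1 by −1.12 ± 0.28 (0.00317) and BIRC3 by −1.01 ± 0.36 (0.0322), and NFKB2 was higher in PEO4 by 0.83 ± 0.27 (0.0197). The BIRC3 groups overlapped, and its call was lost without PEO4 replicate 1 (−0.75, 0.152) or PEO1 replicate 3 (−0.56, 0.285). The NFKB2 call was lost without PEO1 replicate 1 (0.80, 0.0569), PEO4 replicate 2 (0.49, 0.183) or PEO1 replicate 3 (0.70, 0.0929).

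After 8 h (background 9.89%) the differences between PEO4 and PEO1 were −0.95 ± 0.22 for NFKBIA (adjusted p = 0.00293, limma), −2.60 ± 0.44 for BIRC3 (8.99e-05) and −1.39 ± 0.34 for ICAM1 (0.00685). Without PEO4 8 h replicate 2, NFKBIA was −0.86 (0.0549) and ICAM1 −1.29 (0.0816), and without PEO1 8 h replicate 1 ICAM1 was −1.24 (0.0834). After 24 h (background 21.6%), with 1 PEO4 library, TNFAIP3 was lower in PEO4 by 3.10 on the log2 scale (−3.10 ± 0.52, 6.88e-05), and BIRC3 (−3.18 ± 0.50, 3.59e-05), ICAM1 (−2.08 ± 0.40, 0.00037) and NFKBIA (−1.27 ± 0.25, 0.000493) were lower too. BIRC3 stood there at 0.516 TPM against 11.0 to 14.6 TPM in PEO1. The TNFAIP3 and BIRC3 differences were called with all 54 libraries as well (0.00776 and 4.9e-05).

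PEO23 exceeded PEO14 at 8 h (background 14.8%) for NFKBIA, BIRC3 and RELB and was lower for ICAM1. BIRC3 was 2.24, 4.51 and 3.52 TPM in PEO23 and 0.85, 0.646 and 0.296 TPM in PEO14, a difference of 1.45 ± 0.36 (adjusted p = 0.00494, limma). NFKBIA differed by 0.70 ± 0.18 (0.00581), by 0.52 (0.0647) without PEO14 8 h replicate 1 and by −0.18 without rescaling, where BIRC3 differed by 0.87 (0.175) and RELB by 0.10 (0.956). RELB (0.92 ± 0.32, 0.0476) and ICAM1 (−0.84 ± 0.28, 0.041) had overlapping groups. The RELB call was lost without PEO14 replicate 1 or 2 or PEO23 replicate 1 or 3 (0.67 to 0.93), and that of ICAM1 without PEO14 replicate 1 or 3 or PEO23 replicate 3 (−0.47 to −0.91) and with the replicate block (0.0612). At 24 h (background 5.16%) none of the 10 was called by limma, with 2 at an unadjusted p below 0.05, NFKBIA (0.66 ± 0.25, adjusted 0.126) and RELB (1.21 ± 0.45, adjusted 0.118), against 1 PEO14 library.

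Whether partners responded differently was tested as a difference of changes. For PEA2 minus PEA1, none of the 10 was called by limma at 8 h (background 0.339%) or 24 h (0.383%), and none had an unadjusted p below 0.05. For PEO4 minus PEO1 at 8 h (2.38%) none was called and 2 had an unadjusted p below 0.05, BIRC3 (−1.59, adjusted 0.150) and RELB (−1.09). At 24 h (1.38%) only TNFAIP3 was called, and BIRC3 had a difference of −2.16 ± 0.62 (95% interval −3.42 to −0.90, adjusted 0.0779). The NFKBIA difference there was −0.61, with an interval of −1.23 to 0.01.

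Comparisons with untreated PEO23 could be made only with all 54 libraries, since its 3 libraries each listed fewer genes than the minimum. Deposited NFKBIA values there were 347, 0 and 0 TPM. Against untreated PEO14, 4 of the 10 genes were called lower in PEO23, where 38.2% of genes were called and the median difference of all genes was −1.46. In PEO23, 6 of the 10 were called higher at 8 h (background 35.7%, median 1.18) and 5 at 24 h (35.8%, median 1.21). A gene listed at 0 in such a library may be a failed measurement, so these counts are given as values only.

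Some pairs of the 10 genes varied together and others did not. Across the 42 libraries, after subtracting line means, Pearson correlations of log2 values were 0.78 for TNFAIP2 and NFKB2, 0.70 for NFKB2 and RELA, 0.67 for NFKBIA and BIRC3 and 0.60 for TNFAIP3 and ICAM1. NFKBIA and RELA had −0.41 and NFKBIA and TNFAIP2 −0.42. Other pairs were near 0, such as NFKBIA and TNFAIP3 (0.035), BIRC3 and RELB (−0.050) and NFKB1 and RELA (−0.059). Pairs of genes outside the 10 were not computed as a background. The points share libraries, treatment times and scaling factors, so these values are descriptions.

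Other genes of the pathway were read from 7 lists by role. Over all 18013 genes, 4307 were called higher and 7149 lower in the mean at 8 h (63.6% in all), and 3902 higher and 6338 lower at 24 h (56.8%), the background for the list counts. In the mean of 5 lines, 0 of 6 other subunit and IkB family genes were higher at 8 h and 3 lower, 5 higher and 5 lower of 15 IKK and upstream kinase genes, 4 and 4 of 18 receptors and adaptors, and 4 and 8 of 17 ubiquitin editors and feedback genes. Of 5 tested ligand genes 0 were higher and 2 lower, and of 7 genes of the genotoxic route to IKK 0 were higher and 4 lower. Of 24 tested other target genes 11 were higher and 4 lower, with a median change of 0.49 beside −0.22 for all genes, and at 24 h 12 were higher and 3 lower, with a median of 0.57 beside −0.19.

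The chemokine CXCL8 had the largest called mean change among these genes at 8 h, from a mean over libraries of 12.7 TPM untreated to 52.3 TPM, a change of 2.78 ± 0.22 (adjusted p = 7e-12, limma). COMMD1, whose product promotes ubiquitination of RELA, rose from 17.2 TPM to 95.2 TPM (adjusted p = 1.04e-07). PEO1 and PEO4 weigh most in that 8 h mean, at 200 and 190 TPM (standard deviations 176 and 134, 2 libraries each). PEA1, PEA2 and PEO14 were at 44.6, 29.4 and 56.9 TPM. BCL3, an atypical IkB protein that binds p50 and p52, fell by 2.09 on the log2 scale (3.29e-07), from 10.9 TPM to 1.07 TPM. ERC1, a regulatory partner of IKK, went from 27.7 TPM to 5.90 TPM at 8 h, a change of −1.95 ± 0.11, and to 5.42 TPM at 24 h (−2.15 ± 0.12). At 24 h CXCL8 was higher by 2.51 ± 0.24 and the cytokine IL6 by 2.12 ± 0.34 (4.29e-06), while BCL3 changed by −1.84 ± 0.31. Between 8 h and 24 h NFKBIB (0.65 ± 0.16, 0.0334), the gene of IkB-beta, IRF1 (0.62 ± 0.14, 0.0189) and RIPK1 (0.45 ± 0.11, 0.0349) were higher at 24 h, with changes of 0.36, 0.24 and 0.053 and no call with all 54 libraries. The 8 h and 24 h calls of this paragraph against untreated held with all 54 libraries.

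Between partners at 8 h, 7 of 24 other target genes were called higher and 1 lower in PEA2 than in PEA1 (background 16.2% of all genes). In PEO4 against PEO1, 2 were higher and 7 lower (9.89%), and in PEO23 against PEO14, 3 were higher and 7 lower (14.8%). Only this list is counted here, while IL1B and LTB, named below, are from the ligand list and CD40 from the receptor list. F3, the gene of tissue factor, was 325 TPM in PEA2 and 2.17 TPM in PEA1 on average, CXCL8 was 238 TPM and 1.62 TPM, and CCL2 and IL1B, at 239 TPM and 66.3 TPM in PEA2, were listed at 0 in PEA1. IL6 was lower in PEO4 (5.87 TPM) than in PEO1 (40.4 TPM), by 3.52 on the log2 scale (−3.52 ± 0.73, adjusted p = 0.00125, limma), while LTB (3.57 ± 0.88, 0.00673) and CCL5 (3.26 ± 0.61, 0.000406) were higher there. CD40 stood at 20.9 TPM in PEO4 and was listed at 0 in PEO1. In PEO23, CXCL8 was higher than in PEO14 (98.2 against 6.18 TPM, 3.79 ± 0.42, 1.14e-07), and PTX3 (−3.04 ± 0.53, 0.000123) and IER3 (−2.53 ± 0.54, 0.00144) were lower. With all 54 libraries the calls of IL6 (0.584), LTB (0.0863), CCL5 (0.163) and CD40 (0.497) between PEO4 and PEO1 and those of CXCL8 (0.0923) and IER3 (0.396) between PEO23 and PEO14 were lost.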

How the data were processed

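RNA of 6 cell lines, untreated or after 8 h and 24 h of carboplatin, was sequenced from stranded total RNA libraries, per the labels' protocols, as 75 bp read pairs. The deposited TPM values come in 1 table whose name points to RSEM. Base calling used bcl2fastq 2.18 and the genome build was hg19, per the submitters' processing notes. Which aligner, gene annotation and strand option were used is not given in the sources used here. TPM keeps no depth. The 10 genes and all gene lists were chosen with earlier results of these data known.

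The 42 libraries with at least 12000 genes above 0 TPM were rescaled by median ratios over 8287 genes. Genes with at least 1 TPM in at least 3 libraries (18013) were tested in 1 fit of 17 groups with limma 3.58.1 in R 4.3.3, with a mean-variance trend, on log2(TPM + 1). Calls had a Benjamini-Hochberg adjusted p below 0.05 within each of 31 comparisons. The script was tested on simulated data. P-values measure the spread between cultures within groups, not between lines. Named pathway genes are up to 4 called genes per mean or 8 h pair comparison with the largest change and at least 1 TPM in 1 of the groups.

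By the labels, 8 h and 24 h cultures with 1 replicate number share their passage (18 of 18 cases), which pairs them. Deviations of the 10 pairs with used libraries correlated at −0.247 to 0.411, with 2 over 0.1. Alternatives were all 54 libraries, no rescaling, quantile scaling, a pseudocount of 0.1, no filter, only the compared groups, the replicate block and leaving out 39 libraries in turn. A minimum of 13500 genes (40 libraries) and the NFKBIA to RELA ratio were added after the data were seen. Promoter sequences are RefSeq's, on GRCh38.p14, another build than that of the table.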

Additional observations from a re-analysis of the deposited data

Results flagged for a closer look

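The change of TNFAIP3 at 24 h in PEO4 minus that in PEO1 was −3.30 on the log2 scale, and it stands out because the test of the difference itself, in limma over all genes, passed the threshold (adjusted p = 0.00472). All 3 PEO1 libraries at 24 h, at 20.1 to 36.9 TPM, lay above that line's untreated 4.28 to 6.71 TPM, and the 1 PEO4 library, at 2.38 TPM, lay below that line's untreated 3.47 to 12.3 TPM. The call was not made with all 54 libraries (adjusted p = 0.327) or when only the compared groups were fitted.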

How the results depend on the processing

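Of 69 called results for single genes, 6 held, 62 were lost and 1 reversed with all 54 libraries. Without rescaling 35 held, 28 were lost and 6 reversed; 52 held with quantile scaling, 38 when only the compared groups were fitted, 59 with the replicate block, 63 with the stricter gene minimum, 68 with a pseudocount of 0.1 and 67 without the filter. The counts of called genes were 8, 11 and 8 between partners (untreated, 8 h, 24 h), 14 and 12 against untreated (8 h, 24 h), 4 between 24 h and 8 h, 1 for the difference of changes, and 6, 5 and 0 in the means of lines. With all 54 libraries these were 0, 0 and 4, then 0 and 1, 0, 0, and 3 and 0 in the means against untreated. Without rescaling they were 3, 3 and 5 between partners, 9 between 24 h and 8 h and 1 in the mean of 24 h against 8 h. Quantile scaling gave 7 between partners at 8 h and 2 for the difference of changes, and the stricter gene minimum gave 7 between partners at 8 h. Fitting only the compared groups gave 4 (untreated) and 5 (8 h) between partners, 9 at 8 h against untreated, 0 between 24 h and 8 h and 0 for the difference of changes, and the replicate block, the paired fit, gave 1 in the mean of 24 h against 8 h. Leaving out 1 library gave 6 to 8, 8 to 13 and 7 to 8 between partners, 12 to 15 and 10 to 14 against untreated, 2 to 6 between 24 h and 8 h (2 without PEO1 8 h replicate 2), 1 to 3 for the difference of changes (above 1 without PEO4 untreated replicate 1, PEO1 untreated replicate 3 or PEO4 8 h replicate 1), and 6 to 6, 4 to 5 and 0 to 1 in the means (1 without PEO4 8 h replicate 1, PEO23 24 h replicate 2 or PEO14 8 h replicate 3). Signs reversed with all 54 libraries for RELA in PEO4 at 8 h (0.093) and without rescaling for NFKBIA in PEO23 against PEO14 at 8 h (−0.18), in PEO1 (−0.84) and PEO4 (−1.03, adjusted p = 0.0303) at 8 h, in PEO14 at 24 h (−0.61) and in the mean at 8 h (−0.042), and for RELB in the mean at 24 h (−0.15). The cause was not tested. In 3 groups a single library carries the value and is assumed to vary like the others.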
